A study of Mus musculus with 20 samples.

Results

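H3K4me3 was compared between Lin- bone marrow cells of Tet2-/- mice (genotype Tet2 Knockout) and of mice that also lacked p300 in blood cells (genotype p300 Tet2 Knockout), using the peak list of 1 library for each genotype. The 2 lists were merged into 29310 regions. Merging the H3K4me3 lists of all 4 genotypes of the series gave 30095, in which some of the 29310 are joined. A merged region was called lost if no p300 Tet2 Knockout peak overlapped it by 1 bp, gained if no Tet2 Knockout peak did, and retained otherwise. This gave 3564 lost, 23312 retained, and 2434 gained regions, so that 13.3% of the regions marked in Tet2 Knockout were lost and 9.45% of those marked in p300 Tet2 Knockout were gained. With peaks limited to a −log10 q of 5 or more, 3700 regions were lost and 1110 gained.

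The mice of the 4 genotypes carried floxed Ep300 alleles on a C57BL/6 background and received poly(I:C). Tet2-/- mice were Ep300 fl/fl;Tet2-/- without Cre, and double-deficient mice were Mx1-Cre;Ep300 fl/fl;Tet2-/-. The other genotypes, used here as an outside comparison, were WT (Ep300 fl/fl) and p300 Knockout (Mx1-Cre;Ep300 fl/fl). Mx1-Cre is switched on by the interferon that poly(I:C) induces, so Ep300 was deleted after birth in the mice with Cre, whereas Tet2-/- and double-deficient mice lacked Tet2 from the germ line. Lin- cells are the marrow cells left after depletion of mature lineages, a mixture of stem and progenitor cells that the labels give as over 80% pure. Both sexes were used, and the sex of each library is not given. The H3K4me3 lists held 7 peaks on chromosome Y in WT, 1 in p300 Knockout, 7 in Tet2 Knockout, and 6 in p300 Tet2 Knockout, so the p300 Knockout library stood apart in the WT to p300 Knockout comparison. With 1 library for each genotype and mark, the variation among mice is unknown, no test was made, and the 95% Clopper-Pearson intervals below cover counting error only. A fall in the number of cells that carry a mark and a fall in the mark per cell cannot be told apart in such libraries.

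H3K4me3 is written at promoters by the MLL/SET1 methyltransferases, is broad and strong at CpG-rich starts of genes in use, and is weak and narrow at some enhancers. p300 is an acetyltransferase that deposits H3K27ac at active promoters and enhancers, and it does not write H3K4me3 itself. TET2 oxidizes 5-methylcytosine in DNA, and its loss is common in myeloid disease.

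The markers of the labelled cells were present. The progenitor genes Kit, Cd34, Flt3, Gata2, Meis1, Mpo, and Myb each had an H3K4me3 peak within 1000 bp of a start in both genotypes. Of the mature lineage genes Cd3e, Ms4a1, Ly6g, and Itgam, Itgam had one in both genotypes and the others in neither. Other genes of mature lymphocytes did have one in both, among them Cd79b (31.5-fold in Tet2 Knockout and 19.4-fold in p300 Tet2 Knockout), Lck (29.1- and 9.46-fold), and Cd3d (12.25- and 10.3-fold). Of 6 genes of other tissues (Alb, Ins2, Neurod1, Myod1, Krt5, and Myh6), none had a peak in Tet2 Knockout, and Neurod1 had one in p300 Tet2 Knockout with a 2.99-fold enrichment. The H3K4me3 lists held 27807 peaks over 28.9 Mb in Tet2 Knockout and 27268 peaks over 27.4 Mb in p300 Tet2 Knockout. Read depth is unknown from peak lists. Peaks with a −log10 q under 1.3, which miss the stated q threshold of 0.05, made up 0.324% of the Tet2 Knockout list and 1.36% of the p300 Tet2 Knockout list.

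The following sequences, from the GRCm38 (mm10) assembly of NCBI RefSeq, are the plus strand around the summits of some of the strongest lost and gained regions at protein-coding starts or away from any start, with CG dinucleotides in capitals. They are shown because lost and gained regions differed from retained ones in CpG content. The first 3 belong to lost regions, at Fcer1a, in Nucb2, and near Trav17.
Fcer1a, chr1:173227056-173227126: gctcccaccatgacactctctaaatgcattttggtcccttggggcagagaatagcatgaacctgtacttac
Nucb2, chr7:116505818-116506017: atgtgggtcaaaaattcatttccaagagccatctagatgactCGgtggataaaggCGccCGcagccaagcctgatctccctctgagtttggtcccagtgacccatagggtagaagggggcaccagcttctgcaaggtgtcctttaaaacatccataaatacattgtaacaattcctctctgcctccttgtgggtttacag
Trav17, chr14:53801358-53801557: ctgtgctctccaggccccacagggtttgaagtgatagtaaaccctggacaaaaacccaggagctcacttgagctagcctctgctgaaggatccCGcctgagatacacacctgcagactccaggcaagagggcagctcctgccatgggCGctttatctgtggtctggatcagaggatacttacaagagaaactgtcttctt
The next 3 belong to gained regions, at Hbb-bs, at Gdap1, and near Pkib.
Hbb-bs, chr7:103827660-103827859: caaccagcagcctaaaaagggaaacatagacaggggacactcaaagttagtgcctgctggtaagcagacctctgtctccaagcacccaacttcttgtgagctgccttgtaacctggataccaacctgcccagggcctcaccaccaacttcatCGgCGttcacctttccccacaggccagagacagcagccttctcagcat
Gdap1, chr1:17145472-17145581: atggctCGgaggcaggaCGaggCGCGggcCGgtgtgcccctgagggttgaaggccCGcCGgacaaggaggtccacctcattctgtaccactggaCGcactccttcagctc
Pkib, chr10:57743658-57743857: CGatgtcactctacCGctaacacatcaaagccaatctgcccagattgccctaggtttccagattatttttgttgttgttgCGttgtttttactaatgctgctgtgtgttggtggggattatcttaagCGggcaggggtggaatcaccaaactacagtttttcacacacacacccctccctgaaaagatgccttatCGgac
The last comes from a retained region at Abraxas2, chosen after the values were seen as the strongest at a protein-coding start in Tet2 Knockout whose summit window held no untranslated exon.
Abraxas2, chr7:132859493-132859692: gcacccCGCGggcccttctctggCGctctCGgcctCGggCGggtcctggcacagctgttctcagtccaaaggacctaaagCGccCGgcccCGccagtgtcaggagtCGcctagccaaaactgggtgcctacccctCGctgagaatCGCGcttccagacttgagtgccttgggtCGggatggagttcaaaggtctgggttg
The Fcer1a and Gdap1 stretches were shortened to 71 and 110 bases for the same reason. The Fcer1a stretch held 0 CG dinucleotides. Windows of 200 bases held 3 at Nucb2, 2 at Trav17, 2 at Hbb-bs, 5 at Pkib, and 14 at Abraxas2, and the 110 bases at Gdap1 held 8.

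Lost and gained regions were weak and narrow in the list that held them. The median width was 310 bp for lost, 261.5 bp for gained, and 1025 bp for retained regions. The median fold enrichment of lost regions was 4.48, against 19.1 for retained regions in the same list. For gained regions it was 4.14, against 16.3 for retained regions in the p300 Tet2 Knockout list. Fold enrichment here is the authors' value for the strongest peak of the region over the H3 library of the same genotype, and it was used to rank regions within 1 list. A WT or p300 Knockout peak may extend beyond the region it overlaps, so its fold can stem from sequence next to the region.

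Loss was concentrated in the weak end of the Tet2 Knockout list. Its regions were ranked by fold and divided into 4 groups of 6719, group 1 being the strongest. Group 1 lost 0 regions, group 2 lost 6, group 3 lost 600 (8.93%), and group 4 lost 2958 (44.0%). Gain had the same form, with 0, 1, 310 (4.82%), and 2123 (33.0%) regions from group 1 to group 4 of the p300 Tet2 Knockout list. Fold and the call that set the classes come from the same lists, so these shares are a description. The lost regions covered 1.298 Mb and the gained regions 0.733 Mb, against 29.0 Mb of retained regions. A peak of the other list lay within 50 bp of 23 lost and 18 gained regions. Counting a peak of the other list within 500 bp as shared left 2561 lost and 1674 gained regions.

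Lost and gained regions lay beside promoters more often than on them. An annotated start lay within 3000 bp of 53.1% of lost (51.5 to 54.8), 59.4% of gained (57.4 to 61.3), and 79.7% of retained regions (79.2 to 80.2). A start lay inside 8.67% of lost, 11.7% of gained, and 56.6% of retained regions. The median distance to the nearest start was 2634 bp for lost and 1776 bp for gained regions, and 0 bp for retained regions.

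**Figure D1:**
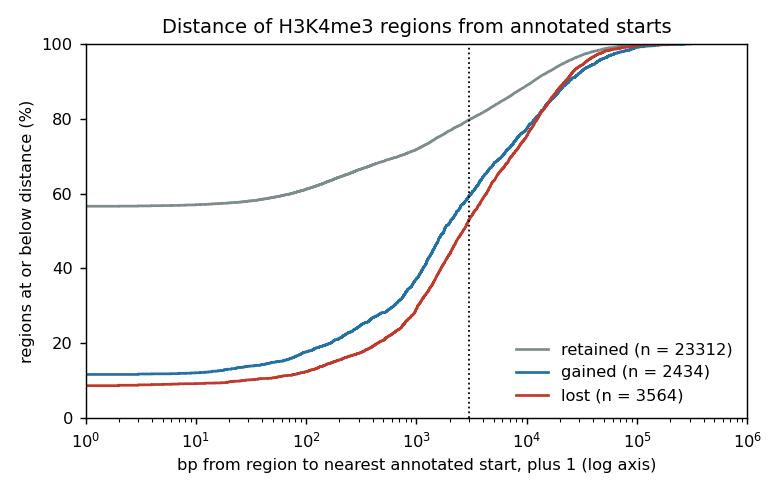
Cumulative share of regions (vertical axis, percent) by the distance in bp from the region to the nearest annotated start (horizontal log axis, with 1 added so that regions holding a start are drawn), for lost, retained, and gained regions; the dotted line marks 3000 bp. The retained curve starts at 56.6%, the gained curve at 11.7%, and the lost curve at 8.67%, and the lost curve is the lowest at 3000 bp.

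Many of these regions had a retained region close by. A retained region lay within 1000 bp of 36.7% of lost and 36.7% of gained regions. Among regions with a start within 3000 bp, a retained region lay within 3000 bp of 67.6% of the lost (65.4 to 69.7) and 60.7% of the gained (58.1 to 63.2). Of lost regions away from starts, 54.3% had their summit in an intron and 39.1% between genes. The corresponding values were 51.3% and 41.5% for gained regions, and 42.1% and 51.2% for retained regions.

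The genes at the nearest start were less often protein-coding than for retained regions. Of regions with a start within 3000 bp, that gene was protein-coding for 80.2% of lost (78.4 to 82.0), 82.6% of gained (80.6 to 84.5), and 90.0% of retained regions (89.6 to 90.4). It was a long noncoding RNA gene for 10.99% of lost, 9.69% of gained, and 6.32% of retained regions, and a pseudogene for 3.33%, 2.98%, and 1.496%. Segments of immunoglobulin or T cell receptor genes accounted for 9 lost (0.475%), 6 gained (0.415%), and 13 retained regions (0.0700%).

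Counted by gene on the full lists, more protein-coding genes gained than lost a mark. The count by gene was not repeated with peaks limited to a −log10 q of 5 or more. Under that limit 1110 regions were gained and 3700 lost. Of 13339 protein-coding genes with a Tet2 Knockout peak within 1000 bp of a start, 184 (1.38%) had no such peak in p300 Tet2 Knockout. Of 13428 marked in p300 Tet2 Knockout, 273 (2.03%) had none in Tet2 Knockout. Both genotypes marked the other 13155. Over all gene types 391 genes (2.31%, 2.09 to 2.54) were lost and 421 (2.48%, 2.25 to 2.72) gained, with intervals that overlapped. Among long noncoding RNA genes 115 of 2298 (5.00%, 4.15 to 5.98) were lost and 85 of 2268 (3.75%, 3.004 to 4.61) gained, with intervals that also overlapped, and among pseudogenes 30 of 303 and 27 of 300.

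H3K27ac, the product of p300, was found less often at lost than at retained regions. In Tet2 Knockout an H3K27ac peak of that genotype overlapped 23.7% of lost (22.3 to 25.2), 55.8% of retained (55.2 to 56.5), and 9.53% of gained regions (8.39 to 10.8). In p300 Tet2 Knockout the shares were 10.4%, 50.4%, and 10.6%. No H3K27ac peak of either genotype lay on 74.7% of lost and 85.8% of gained regions, against 40.6% of retained regions.

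Where H3K27ac was present, it was often lost together with H3K4me3. Over all merged regions acetylated in Tet2 Knockout, 19.3% had no H3K27ac peak in p300 Tet2 Knockout. That share was 531 of 846 (62.8%, 59.4 to 66.0) for lost and 2109 of 13019 (16.2%, 15.6 to 16.8) for retained regions. In the other direction, 8.08% of all regions acetylated in p300 Tet2 Knockout had no H3K27ac peak in Tet2 Knockout. That share was 113 of 258 (43.8%, 37.7 to 50.1) for gained and 832 of 11742 (7.09%) for retained regions. The joint loss was alike at starts (187 of 286, 65.4%) and away from them (344 of 560, 61.4%), whereas retained regions lost H3K27ac less often at starts (13.8%) than away (29.1%).

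**Figure D2:**
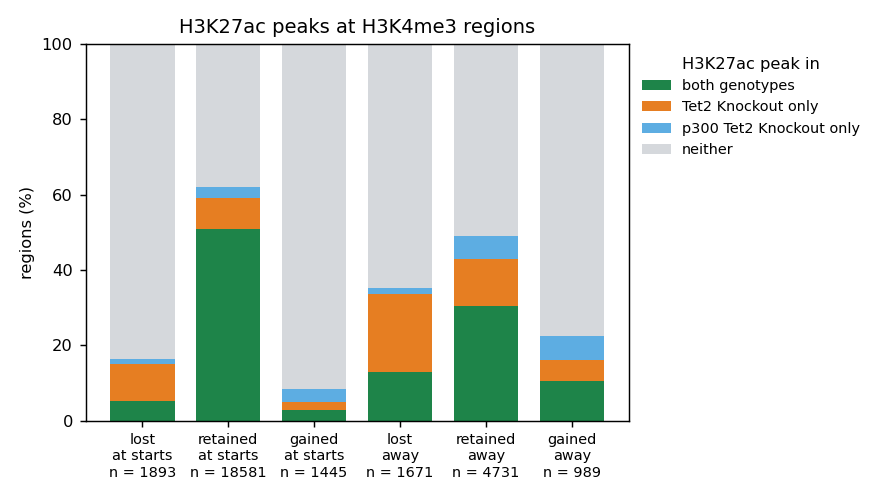
Stacked bars give the percent of regions with an H3K27ac peak in both genotypes, in Tet2 Knockout only, in p300 Tet2 Knockout only, or in neither, for lost, retained, and gained regions with a start within 3000 bp (left 3 bars) and farther away (right 3 bars). The bar for lost regions away from starts has the largest part acetylated in Tet2 Knockout only, 20.6%, and gained regions at starts have the largest part without H3K27ac, 91.5%.

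Retained regions are stronger, and strong regions are acetylated more often, so lost and retained regions were also set side by side within group 3 and within group 4 of the Tet2 Knockout list. In group 3 H3K27ac overlapped 27.2% of lost (23.6 to 30.9) and 27.6% of retained regions (26.5 to 28.7), and in group 4 23.0% (21.5 to 24.6) and 20.5% (19.2 to 21.8). The shares were thus alike in group 3 and slightly higher for lost regions in group 4, with intervals that overlapped. Group 3 spanned folds of 6.12 to 14.8 and group 4 of 1.86 to 6.12, so strength was matched only roughly. Gained regions in group 3 of their own list were acetylated less often than retained ones (14.5%, 10.8 to 18.9, against 24.1%, 22.995 to 25.2), as they were in group 4 (9.99%, 8.74 to 11.3, against 18.4%, 17.2 to 19.6). The share of acetylated regions that lost H3K27ac was 62.6% for lost (54.7 to 70.0) and 33.6% for retained regions (31.3 to 35.9) in group 3, and 62.7% (58.9 to 66.3) and 33.5% (30.1 to 36.9) in group 4. Gained regions in group 4 of their own list were new in H3K27ac in 86 of 212 acetylated regions (40.6%, 33.9 to 47.5), against 148 of 792 retained regions (18.7%, 16.0 to 21.6). In group 3 a start lay within 3000 bp of 53.3% of lost (49.3 to 57.4) and 64.8% of retained regions (63.6 to 65.996), and of 60.6% of gained and 67.0% of retained regions in the p300 Tet2 Knockout list. In group 4 a start lay within 3000 bp of 53.1% of lost and 60.2% of retained regions, and of 59.2% of gained and 58.0% of retained regions in the p300 Tet2 Knockout list.

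H3K4me1, the mark of enhancers and promoter flanks, mostly stayed where H3K4me3 was lost. H3K4me1 peaks overlapped 78.8% of lost regions in Tet2 Knockout and 71.3% in p300 Tet2 Knockout. For retained regions these shares were 73.6% and 77.8%, and for gained regions 56.5% and 68.9%. Of all regions with H3K4me1 in Tet2 Knockout, 8.66% had none in p300 Tet2 Knockout, and the share was 14.4% (13.1 to 15.8) for lost and 7.72% (7.32 to 8.13) for retained regions. Of all those with H3K4me1 in p300 Tet2 Knockout, 12.8% had none in Tet2 Knockout, and the share was 25.1% (23.1 to 27.3) for gained regions.

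The lists of WT and p300 Knockout cells, which the classes did not use, hold the same deletion on a background with Tet2. Of all merged regions with a WT peak, 8.85% had no p300 Knockout peak. That share was 1035 of 1715 (60.3%, 58.0 to 62.7) for lost, 838 of 21755 (3.85%, 3.6 to 4.12) for retained, and 266 of 691 (38.5%, 34.9 to 42.2) for gained regions. Within group 3 of the Tet2 Knockout list it was 54.3% for lost (49.3 to 59.2) and 6.13% for retained regions (5.52 to 6.79), and within group 4 62.1% (59.4 to 64.8) and 17.8% (16.3 to 19.3). Retained regions are by definition called in both lists of the comparison, and they were wider in the median. A call in any further list is therefore more likely at them. Gained regions, like lost ones, lacked a p300 Knockout peak more often than retained regions (38.5% against 3.85%). The part of p300 loss in the contrast with retained regions was not tested. Among regions without a WT peak, 32.4% of all had a p300 Knockout peak, with 16.8% of lost (15.1 to 18.5), 30.1% of gained (27.9 to 32.3), and 53.7% of retained regions (51.2 to 56.2). Gained regions were thus marked in p300 Knockout more often than lost ones and less often than retained ones. Neither WT nor p300 Knockout had a peak at 43.2% of lost and 50.1% of gained regions, against 3.09% of retained regions.

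**Figure D3:**
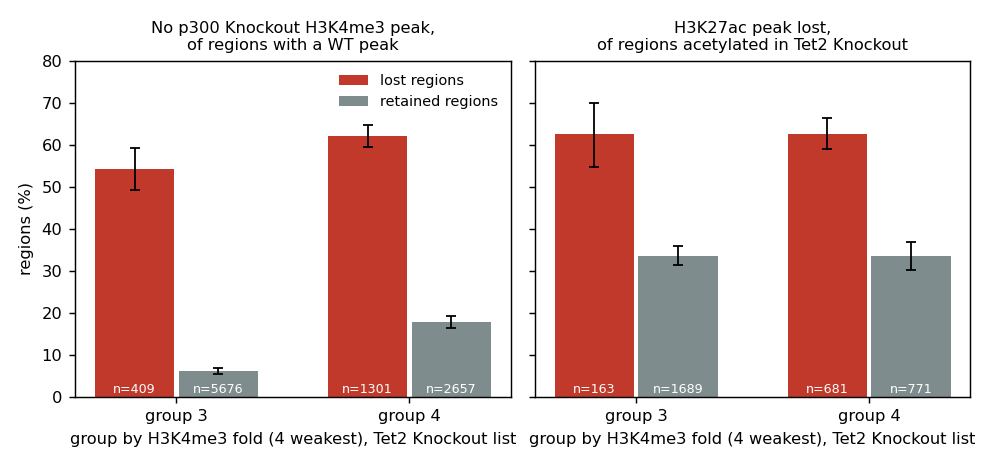
Bars give, for lost and retained regions in groups 3 and 4 of the Tet2 Knockout list by H3K4me3 fold, the percent without a p300 Knockout H3K4me3 peak among regions with a WT peak (left) and the percent that lost H3K27ac among regions acetylated in Tet2 Knockout (right); error bars are 95% Clopper-Pearson intervals and n is the number of regions. The bars for lost regions, between 54.3% and 62.7%, stand above those for retained regions in all 4 pairs. Retained regions are by definition called in both H3K4me3 lists and were wider in the median, so these pairs are not a test of p300 loss.

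Protein-coding genes were also looked up in the WT and p300 Knockout lists. Of the 273 protein-coding genes that gained a mark, 73 (26.7%, 21.6 to 32.4) were marked in WT and 162 (59.3%, 53.3 to 65.2) in p300 Knockout. Of the 184 that lost one, 103 (56.0%, 48.5 to 63.3) were marked in WT and 96 (52.2%, 44.7 to 59.6) in p300 Knockout, shares whose intervals overlapped. H3K27ac was rare at both, on 19 of the 184 lost genes and 6 of the 273 gained genes in the genotype that carried the H3K4me3 peak. Of the 13155 genes marked in both, 98.4% were marked in WT and 99.1% in p300 Knockout, and H3K27ac was on 73.6% in Tet2 Knockout and 68.9% in p300 Tet2 Knockout.

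Among the 10 strongest lost regions at protein-coding starts were genes of mast cells, basophils, and phagocytes. Fcer1a, which encodes the ligand-binding chain of the high-affinity IgE receptor, had a 665-bp region over its start (chr1:173226631-173227295) with an 18.5-fold enrichment in Tet2 Knockout and no peak in the other 3 genotypes. Fcgr3, an IgG receptor of myeloid cells, had a 1066-bp region (chr1:171057110-171058175) with a 15.4-fold enrichment in Tet2 Knockout and a 12.5-fold enrichment in WT, and none in p300 Knockout or p300 Tet2 Knockout. This region held one of several Fcgr3 starts, and a neighbor 133 bp away was retained, at 27.15-fold in Tet2 Knockout and 17.5-fold in p300 Tet2 Knockout. Adora3, an adenosine receptor found on mast cells, had a region 1020 bp from its start with folds of 8.21 in WT, 4.93 in p300 Knockout, and 11.99 in Tet2 Knockout. A retained region lay 189 bp from that of Adora3.

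The other strongest lost regions at starts belonged to genes of varied function. Vcam1, the adhesion molecule bound by integrins of blood cells, had folds of 22.9 in WT, 4.17 in p300 Knockout, and 11.9 in Tet2 Knockout at chr3:116128503-116129092. A retained region lay 118 bp from that of Vcam1. Kdm2b, a demethylase that binds CpG-rich DNA, had folds of 21.8, 43.7, and 13.3 in these genotypes at a 288-bp region 206 bp from a retained one. Nucb2, a calcium-binding protein, had folds of 5.97 in WT and 15.8 in Tet2 Knockout and no p300 Knockout peak. Cnga1, Tmem178, Btnl9, and B4galt6 completed the 10, with Tet2 Knockout folds from 11.5 to 12.7. Of the 10 regions, 9 had a WT peak, 6 a p300 Knockout peak, and 6 a retained region within 1000 bp. Only Cnga1, a cyclic nucleotide-gated channel, had H3K27ac in Tet2 Knockout, with folds of 11.97 in WT, 2.50 in p300 Knockout, 13.7 in Tet2 Knockout, and 5.25 in p300 Tet2 Knockout, so its H3K27ac peak was kept in the double-deficient list.

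The 3 strongest lost regions away from starts were all marked in WT and in none of the p300-deficient lists. A region 5014 bp from the T cell receptor segment Trav17 (chr14:53800663-53801625) had H3K4me3 folds of 11.8 in WT and 16.3 in Tet2 Knockout and H3K27ac folds of 4.73 and 5.09 there, with neither mark in p300 Knockout or p300 Tet2 Knockout. A region in an intron of Exoc6, a subunit of the exocyst, lay 51568 bp from the nearest start and had H3K4me3 folds of 8.35 in WT and 14.9 in Tet2 Knockout. Its H3K27ac folds were 5.47 in WT, 4.25 in p300 Knockout, and 12.8 in Tet2 Knockout, with no peak in p300 Tet2 Knockout. The region nearest to the pseudogene Gm45384 had H3K4me3 folds of 5.66 in WT and 14.9 in Tet2 Knockout and no H3K27ac peak in any genotype.

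The strongest gained regions at starts included 2 genes of red cells. Hbb-bs, an adult beta-globin gene, had a 494-bp region over its start (chr7:103827599-103828092) with folds of 12.1 in WT, 19.4 in p300 Knockout, and 11.8 in p300 Tet2 Knockout, and no peak in Tet2 Knockout. H3K27ac was called there in p300 Tet2 Knockout alone, at 8.83-fold. Epb42, a protein of the red cell membrane, had folds of 16.9 in WT, 19.4 in p300 Knockout, and 10.3 in p300 Tet2 Knockout at chr2:121036436-121036886. Its H3K27ac folds were 9.09, 6.74, and 12.1 in the same genotypes, again with no peak in Tet2 Knockout. The Tet2 Knockout list was thus the one without a call at both regions, although a retained region lay 117 bp from that of Epb42, at 3.44-fold in Tet2 Knockout and 7.11-fold in p300 Tet2 Knockout. Hbb-bs has near-identical copies, so reads of the globin genes may be shared between them.

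The remaining strong gains at starts were seldom acetylated. Gdap1, a mitochondrial protein of neurons, had no peak in WT or Tet2 Knockout and folds of 6.88 in p300 Knockout and 11.1 in p300 Tet2 Knockout. Asap2, a GTPase-activating protein whose region lay 256 bp from its start and nearer to Gm21989, had 22.6 and 10.99 in the same genotypes and none in WT, and another start of Asap2 was marked in both Tet2 Knockout and p300 Tet2 Knockout. The histone gene Hist1h3e had 9.39 in WT and 9.94 in p300 Tet2 Knockout, with an H3K27ac peak of 10.9-fold in p300 Tet2 Knockout. At Cftr, the chloride channel of epithelia, a 248-bp region 210 bp from the start was called in p300 Tet2 Knockout alone, at 9.56-fold, and a retained region over the start lay 102 bp from it (4.50-fold in Tet2 Knockout and 8.36-fold in p300 Tet2 Knockout). Klhl34, Akap7, Fcho2, and Nop58 completed the 10, with folds from 9.37 to 10.3. Of the 10, 5 had a WT peak, 8 a p300 Knockout peak, 3 H3K27ac in p300 Tet2 Knockout, and 6 a retained region within 1000 bp. The 3 strongest gained regions away from starts, nearest to Pkib, Zfp277, and Olfr713, had folds of 11.5, 10.99, and 9.94 and no H3K27ac peak in any genotype. The region near Pkib also had folds of 6.94 in WT and 7.14 in p300 Knockout, and that in Zfp277 had 6.13 and 10.46, so both lacked a peak in Tet2 Knockout alone.

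Without the limit to protein-coding genes, the strongest gained region lay 22 bp from a start of the long noncoding RNA gene 2610035D17Rik (chr11:113172433-113173055). Its folds were 27.1 in WT, 35.3 in p300 Knockout, and 24.5 in p300 Tet2 Knockout. H3K27ac stood at 17.6, 29.6, and 22.1 in these genotypes, and neither mark was called in Tet2 Knockout. This was also the only gained region in the stronger part of the p300 Tet2 Knockout list by fold.

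**Figure D4:**
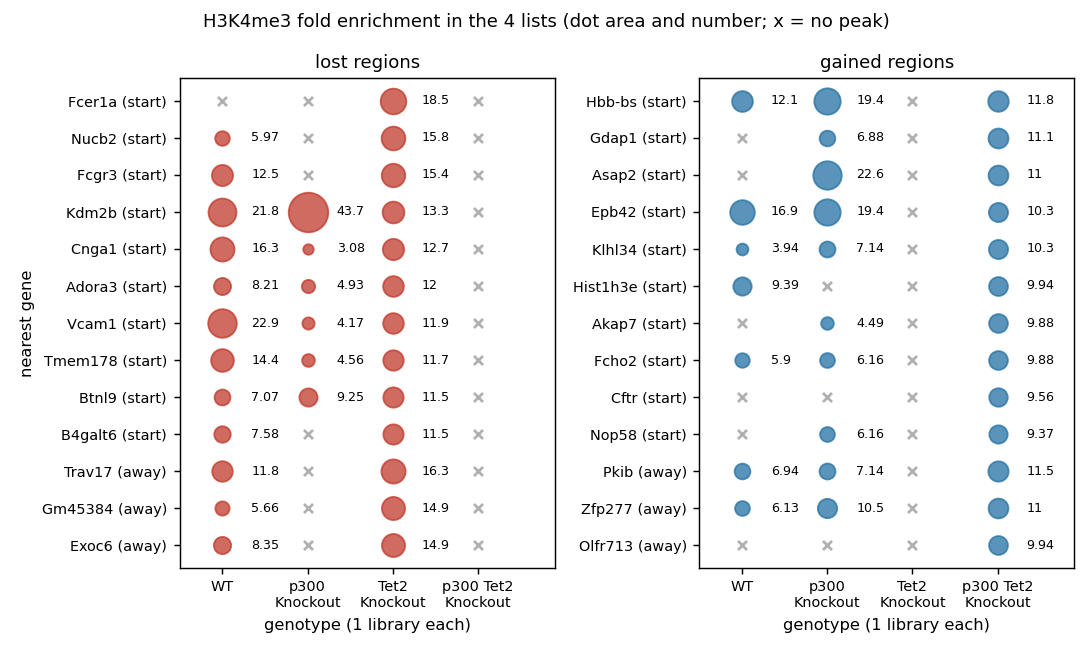
Dots give the H3K4me3 fold enrichment (area and printed number) in the list of each genotype, with a cross where no peak was called. Shown are the 10 strongest lost (left) and gained (right) regions with a protein-coding start within 3000 bp (start). Also shown are the 3 strongest of each with no start within 3000 bp (away). Of the 13 lost regions, 12 have a WT dot and 6 a p300 Knockout dot. Of the 13 gained regions, 7 have a WT dot and 10 a p300 Knockout dot.

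The genes the study was built on kept H3K4me3 at their starts. Ep300 had retained regions at 41.1-fold in Tet2 Knockout and 26.6-fold in p300 Tet2 Knockout, with H3K27ac at 44.2- and 22.1-fold, and Tet2 had retained regions at 42.0- and 35.7-fold. These peaks lie at the start and do not check the deletion of either gene. Notch1, a receptor that directs T cell fate, kept its start at 19.6- and 36.5-fold. Other Notch1 regions were retained but narrowed, from 2037 to 1550 bp, 767 to 311 bp, and 559 to 317 bp of peaks. H3K27ac at the first and second was called in Tet2 Knockout (3.13- and 3.34-fold) and not in p300 Tet2 Knockout. At the third it was called in both (3.34- and 3.29-fold).

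At Myb, the transcription factor required by blood progenitors, 4 regions were retained and 3 were lost. The strongest retained regions had folds of 48.0 and 28.2 in Tet2 Knockout and 19.8 and 35.0 in p300 Tet2 Knockout. Lost regions stood at chr10:21145030-21145594 (6.60-fold in Tet2 Knockout), chr10:21146150-21146519 (5.00-fold), and chr10:21155438-21155644 (4.79-fold). The first and second of these also had WT peaks, at 6.08- and 12.97-fold, and none of the 3 had a p300 Knockout peak. H3K4me1 was present at all 3 in both genotypes.

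At Dntt, the template-independent polymerase of early lymphocytes, the region over the start (chr19:41029364-41029697) had folds of 4.53 in WT and 4.09 in Tet2 Knockout and no peak in either p300-deficient list. A second region 589 bp from a start had 6.47 in WT and 6.23 in Tet2 Knockout, with the same absence. Another region, 1466 bp from a start, was retained, with folds of 8.94 in WT, 3.84 in p300 Knockout, 15.3 in Tet2 Knockout, and 9.10 in p300 Tet2 Knockout. H3K27ac at this retained region was called at 6.28-, 3.24-, and 6.26-fold in WT, p300 Knockout, and Tet2 Knockout and not in p300 Tet2 Knockout.

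Fixed gene lists were read against the background of 1.38% lost and 2.03% gained protein-coding genes. In the stem and progenitor list 21 of 22 genes were marked in both genotypes, and none was lost or gained. The same was true of 24 of 25 enzymes of H3K4 methylation, 21 of 21 acetyltransferases and deacetylases, 22 of 23 NF-kB and inflammatory genes, 20 of 21 interferon-stimulated genes, 28 of 28 cell cycle genes, and 15 of 15 housekeeping genes. In these 7 lists the genes not counted had no peak in either genotype.

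Lost and gained genes were found in the lists of lineage genes. In the erythroid and megakaryocyte list 16 of 21 genes were marked in both genotypes, 5 were gained, and none was lost. The 5 were Hbb-bs, Hba-a2 (an alpha-globin gene), Alas2 (the first enzyme of heme synthesis in red cells), Car1 (an erythroid carbonic anhydrase), and Ppbp (a platelet chemokine). Hba-a2 had folds of 5.76 in WT, 7.69 in p300 Knockout, and 5.74 in p300 Tet2 Knockout. Alas2 had 10.0 in WT, 7.46 in p300 Knockout, and 3.37 in p300 Tet2 Knockout. Car1 had 15.1 in WT, 11.1 in p300 Knockout, and 6.79 in p300 Tet2 Knockout at its start, while 2 regions from 2048 to 2638 bp away were lost. The other copies, Hba-a1 and Hbb-bt, were marked in both genotypes, at 5.42- and 4.76-fold in Tet2 Knockout and 4.98- and 2.58-fold in p300 Tet2 Knockout. In 4 of the 5 gained genes Tet2 Knockout was the one genotype without a peak. Ppbp was marked in p300 Tet2 Knockout alone, at 2.56-fold. The master erythroid factors Gata1 and Klf1 were marked in both genotypes, at 23.0- and 30.3-fold in Tet2 Knockout and 25.9- and 20.5-fold in p300 Tet2 Knockout. The part of cell composition in these gains was not tested.

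In the lymphoid list 13 of 30 genes were marked in both genotypes, 3 were lost, none was gained, and 14 were marked in neither. The lost genes were Dntt, Bcl11b (a T cell factor, 6.46-fold in Tet2 Knockout and 7.92-fold in p300 Knockout, with no WT peak), and Pax5 (the B cell commitment factor, 4.11-fold in WT, 8.53-fold in p300 Knockout, and 3.38-fold in Tet2 Knockout). Of 10 lymphoid genes with H3K27ac in Tet2 Knockout, 5 had none in p300 Tet2 Knockout. Blnk, an adaptor of B cell receptor signaling, lacked H3K27ac in Tet2 Knockout only. Its H3K27ac folds were 6.56 in WT, 5.81 in p300 Knockout, and 4.92 in p300 Tet2 Knockout. Over all protein-coding genes 9.93% of those acetylated in Tet2 Knockout lost H3K27ac and 3.40% of those acetylated in p300 Tet2 Knockout were new. H3K27ac was lost at 2 of 10 acetylated myeloid genes, 2 of 11 erythroid and megakaryocyte genes, 4 of 17 acetyltransferases and deacetylases, and 1 of 26 cell cycle genes. Klf1, at 6.69-fold in Tet2 Knockout, was among the erythroid losses. H3K27ac was new at 3 erythroid and megakaryocyte genes, and at 2 genes each of the stem and progenitor, Hoxa and Hoxb, and interferon-stimulated lists. It was new at none of the myeloid or cell cycle genes. In the myeloid list 1 gene was lost, S100a9, at 4.11-fold in WT and 5.18-fold in Tet2 Knockout, and 1 was gained, its partner S100a8, at 5.20-fold in WT, 4.69-fold in p300 Knockout, and 3.29-fold in p300 Tet2 Knockout. These genes encode the subunits of calprotectin, and they went opposite ways.

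In the Hoxa and Hoxb list 12 of 21 genes were marked in both genotypes. Hoxa13 was lost (6.42-fold in Tet2 Knockout, 10.0-fold in WT, and 4.99-fold in p300 Knockout). Hoxa5 was gained (4.53-fold, with 6.40-fold in p300 Knockout and none in WT), as was Hoxb2 (3.43-fold at a region 307 bp from a start, with 4.25-fold in WT and 4.72-fold in p300 Knockout), although a retained region lay next to it. In the list of other cell types 9 of 24 genes were marked in both genotypes, Pax6 was lost at 2.55-fold, and Lepr, Nes, Foxa2, and Neurod1 were gained at 2.99- to 4.45-fold.

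Because Fcer1a was the strongest lost region and Adora3 was among the 10 strongest at protein-coding starts, 16 genes of eosinophils, basophils, and mast cells were listed after the values had been seen. Of the 16, 9 were marked in both genotypes, 4 were lost (Fcer1a, Cpa3, Mcpt8, and Ear1), none was gained, and 3 (Ccr3, Mcpt4, and Tpsb2) were marked in neither. Cpa3, a mast cell protease, had 8.77-fold in Tet2 Knockout and no peak elsewhere, and Mcpt8, a basophil protease, had 4.50-fold in Tet2 Knockout alone. Ear1, an eosinophil ribonuclease with close paralogs that may share its reads, had 5.72-fold in WT and 6.10-fold in Tet2 Knockout. At Mcpt8 H3K27ac was called in both genotypes, at 4.58- and 4.28-fold. As these genes were picked for how they moved, their count supports nothing further, and the part of cell composition was not tested.

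**Figure D5:**
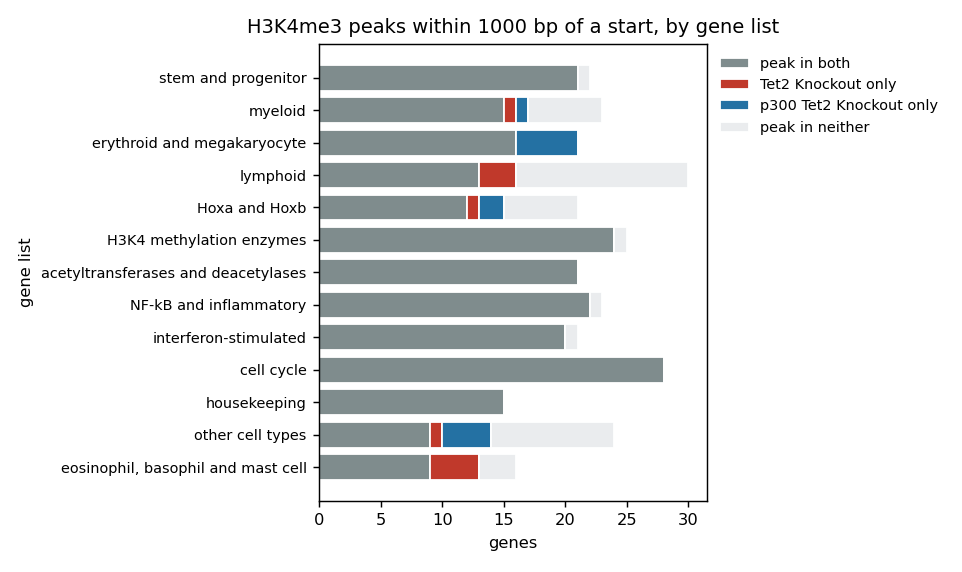
Bars give the number of genes in each list with an H3K4me3 peak within 1000 bp of a start in both genotypes, in Tet2 Knockout only (lost), in p300 Tet2 Knockout only (gained), or in neither. The erythroid and megakaryocyte list holds 5 gained genes of 21 marked in p300 Tet2 Knockout and the list of other cell types 4 of 13, and the bottom list, with 4 lost genes of 16, was assembled after the values were seen.

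Some genes held several lost regions. One lost region lay in or within 3000 bp of 1949 protein-coding genes, 2 in 372, 3 in 75, 4 in 18, and 5 or more in 12. For gained regions these numbers were 1677, 202, 25, 6, and 1. Among genes with 6 lost regions and no gained one were Rnf43, Agap1, and Prg3. Prg3, a granule protein of eosinophils, is 5672 bp long and was the shortest of them. Its start was retained (31.5-fold in WT, 15.6-fold in p300 Knockout, 34.9-fold in Tet2 Knockout, and 16.8-fold in p300 Tet2 Knockout), and its width fell from 2496 to 1623 bp of peaks between the last 2 genotypes. Around it 6 regions with Tet2 Knockout folds of 5.19 to 6.68 were lost, of which 2 had a WT peak and none a p300 Knockout peak. The neighboring start of Prg2, the major basic protein of eosinophils, was retained with 4022 bp of peaks in Tet2 Knockout and 3176 bp in p300 Tet2 Knockout.

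Retained regions were on the whole of similar width in both genotypes. The median of the ratio of peak width in p300 Tet2 Knockout to that in Tet2 Knockout was 0.980, with quartiles of 0.888 and 1.05, and 57.7% of retained regions were narrower in p300 Tet2 Knockout. The median ratio was 0.930 where H3K27ac was lost, 0.990 where it was kept, 1.01 where it was new, and 0.968 where neither genotype had it. A ratio of 0.5 or less was found at 4.98% of retained regions that lost H3K27ac (4.09 to 5.995) at 0.953% of those that kept it (0.780 to 1.154), and at 3.03% of those without H3K27ac in either genotype (2.70 to 3.40). The median width in Tet2 Knockout was 931 bp where H3K27ac was lost, 1513 bp where it was kept, and 571 bp where neither genotype had it.

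The 5 retained regions at protein-coding starts that narrowed most had a common order among the genotypes. Peaks of WT and p300 Knockout were counted only inside the merged region, so their widths cannot exceed that of the region. At Pxylp1 the peaks covered 4537 bp in WT and Tet2 Knockout, 2081 bp in p300 Knockout, and 2108 bp in p300 Tet2 Knockout. Ncf1, a subunit of the phagocyte NADPH oxidase, had 4897, 2892, 4958, and 2885 bp in WT, p300 Knockout, Tet2 Knockout, and p300 Tet2 Knockout. Rnd1, a small GTPase, had 2428, 627, 3119, and 942 bp. Fgf3, a growth factor, had 2348, 776, 2921, and 683 bp, and Chst13, a sulfotransferase, had 3015, 471, 3015, and 996 bp. In each of the 5 the lists of WT and Tet2 Knockout were wide and both p300-deficient lists narrow.

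The 5 that widened most gained 915 to 1360 bp and had no such common order. At Slc4a1, the anion exchanger of red cells, peaks filled all 2719 bp of the merged region in WT, p300 Knockout, and p300 Tet2 Knockout. They covered 1359 bp of it in Tet2 Knockout. This region also carried H3K27ac in all genotypes but Tet2 Knockout, at 6.33-, 4.34-, and 4.92-fold. Cyp26a1, which degrades retinoic acid, had 2146, 439, 1055, and 2167 bp in WT, p300 Knockout, Tet2 Knockout, and p300 Tet2 Knockout. Xpo4, Nudcd2, and Atxn3 widened by 1044, 1005, and 915 bp.

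Lost regions were the poorest in CpG relative to expectation. The median ratio of observed to expected CpG over the region was 0.291 for lost, 0.348 for gained, and 0.547 for retained regions. Away from starts the medians were 0.286, 0.339, and 0.375. A ratio of 0.6 or more was found at 13.3% of lost (12.2 to 14.4), 17.9% of gained (16.4 to 19.5), and 40.6% of retained regions (40.0 to 41.3). Among the regions whose sequences are printed above, the ratio was 0.114 at Fcer1a, 0.147 at Hbb-bs, 0.524 at Gdap1, and 0.642 at Abraxas2.

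The 100 bp either side of each summit were read on both strands for short motifs of blood factors. The motif of GATA factors, AGATAA, was present at 8.61% of lost (7.71 to 9.58), 6.66% of gained (5.70 to 7.72), and 4.32% of retained regions (4.06 to 4.58), and at 5.03% of all 29310 regions. Away from starts, where base composition differed less, the shares were 9.75% (8.37 to 11.3), 7.28% (5.74 to 9.08), and 7.29% (6.57 to 8.07), and 7.85% of all. TGTGGTTT, a RUNX motif, was present away from starts at 3.47% of lost (2.65 to 4.46), 2.83% of gained, and 2.28% of retained regions (1.88 to 2.75). GAGGAAGT, an ETS motif of the PU.1 type, was present there at 3.59%, 3.24%, and 2.49%. TGACTCA, the AP-1 motif, was at 4.31%, 4.65%, and 4.33%, and GCCAAT, bound by NF-Y, at 5.03%, 4.95%, and 5.12%. No motif shares a core with another, and a match is a run of letters and not a bound site.

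The share of lost regions was lowest on chromosome X. The share of Tet2 Knockout regions that were lost was 7.65% on chromosome X (5.88 to 9.76) and between 11.8% (chromosome 19) and 16.1% (chromosome 12) on the autosomes. The share of p300 Tet2 Knockout regions that were gained was 9.18% on chromosome X and between 7.47% and 11.7% on the autosomes.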

How the data were processed

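H3K4me3, H3K27ac, and H3K4me1 ChIP-Seq peak lists of Lin- bone marrow cells were used, 12 lists from 4 genotypes with 1 library each. Of 20 samples, those for H3 and H3K27me3 were not analysed here. The titles of the H3K4me3 samples read H3Kme3, and the antibody and the records of the lists give H3K4me3. Per the labels and the methods, the authors used cutadapt 1.15 for trimming and BWA 0.7.13 for alignment to mm10, removed duplicates with Picard, and called narrow peaks with MACS2 2.1.1.20160309 against the H3 library, keeping peaks found in pseudo-replicates. The labels describe single-end and the methods paired-end reads. The deposited lists give each peak's position and summit, a fold enrichment (ratio over the H3 library), −log10 P and q values, and a score that was not used. No scaling by the Drosophila spike-in is described, so the number of peaks can move with depth and yield, and folds were never compared between lists as amounts.

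Regions were merged and classed by 1 bp of overlap. Starts and genes were those of GENCODE M21 on GRCm38, and sequence was read from the GRCm38 assembly of NCBI RefSeq. A gene was marked if a peak lay within 1000 bp of any of its starts. Shares carry Clopper-Pearson 95% intervals. Work was done in Python 3.11.15 with pandas 2.3.3 and SciPy 1.17.1, and the code was tested on simulated data against bedtools 2.31.1. Members, gene lists, and alternatives were chosen with earlier results of these data known. Named genes were Ep300, Tet2, Myb, Notch1, and Dntt, the 10 strongest lost and 10 strongest gained regions at protein-coding starts, the 3 strongest of each away from starts, the list members that were lost or gained (at most 6 a list), and the 5 retained regions that widened and 5 that narrowed most. Genes otherwise named were chosen after their values were seen. Some marker genes of the lists are not reported here by name.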

Additional observations from a re-analysis of the deposited data

Results flagged for a closer look

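Some regions went the opposite way on the background with Tet2. Of the 3564 regions lost from Tet2 Knockout to p300 Tet2 Knockout, 310 (8.70%) had a p300 Knockout peak and no WT peak, against 3.59% of retained regions. Among regions without a WT peak, a p300 Knockout peak was found at 16.8% of lost regions and 32.4% of all. Of the 2434 gained regions, 266 (10.9%) had a WT peak and no p300 Knockout peak, against 3.59% of retained regions. Among regions with a WT peak, a p300 Knockout peak was missing at 38.5% of gained regions and 8.85% of all. With 1 library each, these differences were not tested. The strongest of the first kind at protein-coding starts were near Ccnb1ip1 (5.28-fold in p300 Knockout, 9.26-fold in Tet2 Knockout), Nbea (8.62- and 8.37-fold), and Slc1a2 (9.85- and 7.67-fold). The strongest of the second kind were near Hist1h3e (9.39-fold in WT, 9.94-fold in p300 Tet2 Knockout), Elovl2 (9.20- and 9.30-fold), and Zfp972 (7.35- and 8.37-fold).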

How the results depend on the processing

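No paired analysis was possible because each genotype and mark has 1 library. Of 46 recomputed values, 23 stayed within 1.5 times the count or inside the interval of the share reported, and 23 moved. Limiting peaks to a −log10 q of 5 or more in both lists left 3700 lost regions but 1110 gained ones, so the excess of loss over gain went from 1.46 to 3.33 lost per gained region. With lists of equal size it was 1.24, so its size depends on the threshold. Under that limit a start lay within 3000 bp of 55.2% of lost and 56.1% of gained regions, and H3K27ac on 26.6% and 13.7%. Counting only regions with a peak above the median fold left 6 lost and 1 gained region, with starts at 50% and 100% and H3K27ac at 33.3% and 100%. Letting a peak of the other list within 500 bp count gave 42.0% and 48.9% at starts and 28.3% and 12.5% with H3K27ac. A start within 500 bp was found for 20.8% of lost and 28.2% of gained regions, and a protein-coding start within 3000 bp for 45.6% and 51.8%. H3K27ac peaks with a −log10 q of 5 or more overlapped 18.4% of lost and 7.601% of gained regions, and H3K27ac peaks within 500 bp were found for 33.8% and 18.8%. Removing peaks with a −log10 q under 1.3, chosen after seeing the data, gave 3650 lost and 2289 gained regions. Autosomes alone, and an overlap of 0.5 of the shorter peak, moved none of the 6 results.

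The limits are those of 1 library per genotype, unknown depth, and classes set by the presence of a call.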
